A study of Mus musculus with 12 samples.

Results

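The BCL2 family decides whether a cell survives or undergoes mitochondrial apoptosis, and 10 of its genes are described here in limb buds of Mettl14 knockouts and heterozygous controls. The members are a list of names, and no measured value enters the rule that picks them. The list was, however, chosen with earlier results of these data known. It holds the survival genes Bcl2, Bcl2l1 (BCL-XL) and Mcl1 and the pore-forming effectors Bax and Bak1. The other members are the BH3-only genes Bid, Bbc3 (PUMA), Pmaip1 (NOXA), Bcl2l11 (BIM) and Bmf. All 10 were found among the 54532 genes of the deposited table, 22046 of them protein-coding, and all 10 passed the filter on low values in each comparison. Limb buds of E12.5 mouse embryos supplied the RNA, either Mettl14 flox/flox knockouts (cKO) or Mettl14 wt/flox heterozygous controls (cHet), so that all animals carry at least 1 floxed allele. From each cytoplasmic lysate, RNA was sequenced as such (input) and after a sucrose gradient that collects mRNAs loaded with several ribosomes (polysome), which gives 4 groups of 3 biological replicates. The Cre driver, and therefore the cells in which Mettl14 was deleted, is not named in the sources used here, nor is the number of embryos in a lysate.

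BAX and BAK1 form pores in the outer mitochondrial membrane that release cytochrome c, and BCL2, BCL-XL and MCL1 hold them in check by binding them. BH3-only proteins carry stress signals to this switch by occupying the survival proteins or by activating the effectors. In the limb bud, programmed cell death later removes the tissue between the digits, and mice lacking both Bax and Bak1 keep interdigital webs. METTL14 works with METTL3 to place N6-methyladenosine (m6A) on mRNA, most often within a short consensus around GGAC and often near stop codons.

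Because m6A is mostly placed within a short consensus, the 5-letter word GGACT was searched on the sense strand of 1 transcript per gene. That transcript was the one with the longest coding sequence in GENCODE M21 (mm10). The match nearest to the stop codon is shown for the 3 survival genes and for Bax, with every GGACT in capitals, because these genes show the range of places in which the word lies in the family: in the 3′ UTR far from or close to the stop codon, or in the coding sequence.
Bcl2: ctggtcttccatGGACTggagaagGGACT
Bcl2l1: tcgaagagaataGGACTgaggccccagaa
Mcl1: gagtgcaataggGGACTcttaaagctcca
Bax: tcccactgccttGGACTgtgtcttttctt
The Bcl2 window lies at chr1:106542699-106542727 (minus strand), in the 3′ UTR and 549 bases past the stop codon. That of Bcl2l1 lies at chr2:152829874-152829902 (minus strand), in the coding sequence 601 bases before its end. The words of Mcl1 (chr3:95660830-95660858, plus strand) and Bax (chr7:45461829-45461857, minus strand) begin 19 and 17 bases past the stop codon, in the 3′ UTR. Within 200 bases of the stop codon, 5 of the 10 members held the word (Mcl1, Bax, Bak1, Bid and Bbc3), against 40.0% of 11858 expressed protein-coding genes. Per kilobase, Bax had 3.46 matches, Bbc3 2.76 and Mcl1 2.34, Bcl2 had 1.25 and Pmaip1 0.733, and the median gene had 1.05. A match is a description of the sequence and does not show methylation, which these libraries did not measure.

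The libraries held 10349912 to 30068823 assigned reads. The members had 75 to 5740 reads each per library, which sets their counting precision. Values are FPKM (fragments per kilobase of gene model, scaled for library size). The gene model can be longer than the transcript searched above, with 1576 against 867 bases for Bax but 3418 in both for Mcl1. Comparisons of levels between genes depend on that length. The limb mesenchyme markers checked (10 genes, among them Prrx1, Twist1 and Tbx5) were above 0 in all 12 libraries, with a lowest value of 2.52. In input, the 3 cHet libraries held Mettl14 at 4.09, 4.03 and 4.04 FPKM and the 3 cKO libraries at 2.60, 3.32 and 1.26. On polysomes it had 2.83, 3.07 and 3.02 in cHet and 2.73, 2.81 and 3.29 in cKO. The cKO input libraries were thus all below the cHet ones while the polysome libraries overlapped, and neither difference passed the threshold (log2 −0.83, adjusted p = 0.295, and −0.02, adjusted p = 0.954, limma). The exons that the deletion removes are not named in the sources used here, so these counts over the whole gene check the labels only in part. In a principal component analysis, cKO input replicate 3 (second component −63.0, other input libraries 0.493 to 22.5) and cKO polysome replicate 1 (first component 3.97, other polysome libraries 35.5 to 53.8) stood apart from their groups.

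In cHet input the order of the levels was Mcl1, Bax, Bak1, Bcl2l1, Bmf, Bcl2, Pmaip1, Bcl2l11, Bbc3 and Bid. Mcl1 averaged 54.6 ± 1.63 FPKM and Bid, at the low end, 3.89 ± 0.243 (SD, n = 3 each). Neighbours in this order were separated in all 3 libraries except for Bcl2 with Pmaip1 and Bbc3 with Bid. The effectors and the survival genes Mcl1 and Bcl2l1 were thus the abundant members, and the BH3-only genes lay below all 4 of them. Bcl2 was the least abundant survival gene, at 8.07% ± 0.355 of the summed FPKM of the 3 in cHet input, where Mcl1 took 65.6% ± 0.642 and Bcl2l1 26.3% ± 0.997. On cHet polysomes Bax (77.3 ± 6.87) and Bak1 (57.8 ± 3.96) stood above Mcl1 (42.2 ± 1.98), and the lower neighbours Bbc3, Bcl2l11, Bid and Bcl2 overlapped, at means from 8.10 to 9.03. In both cKO fractions Bcl2 had the lowest mean of the 10.

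**Figure D1:**
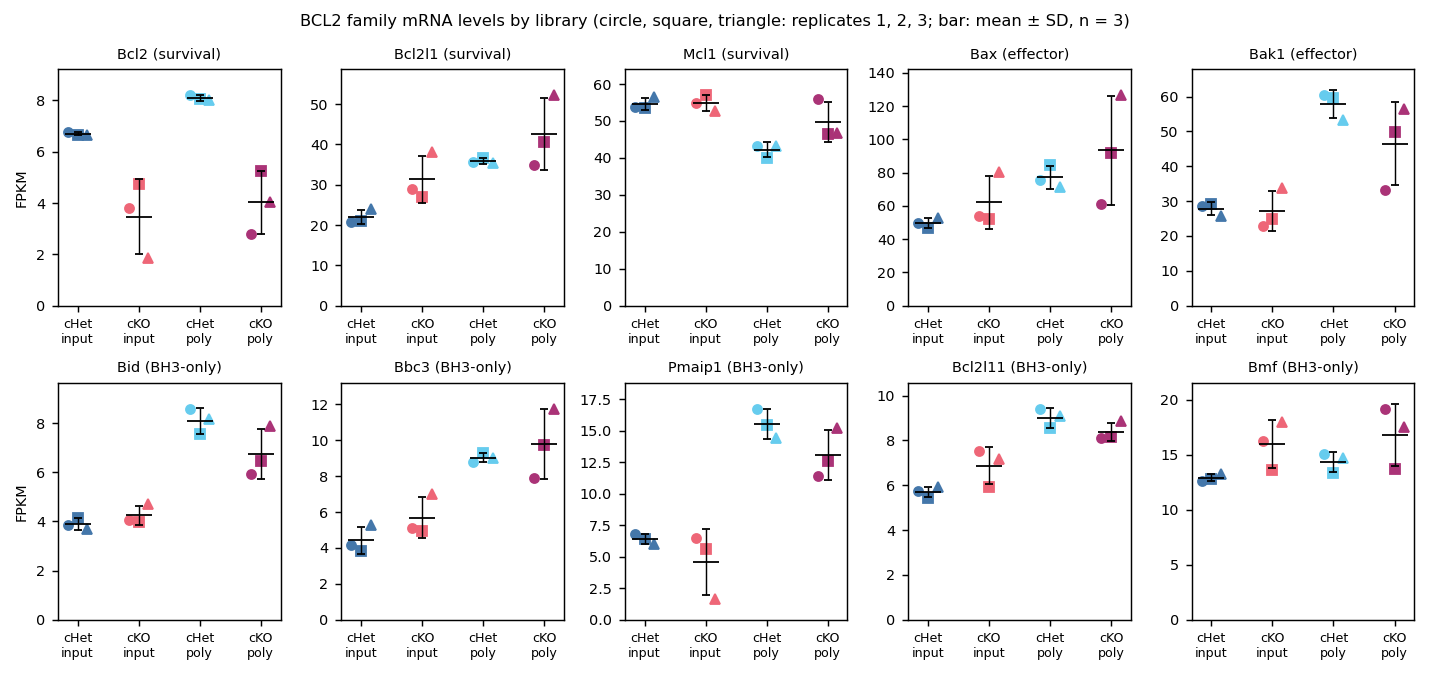
FPKM of the 10 genes in each of the 12 libraries (points; circle, square and triangle are replicates 1, 2 and 3), with the mean and SD of each group (n = 3) and a linear axis from 0 in each panel. All cKO points of Bcl2 lie below all cHet points of the same fraction, and Pmaip1 drops to 1.61 in cKO input replicate 3.

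The first question was whether the mRNA levels differed between cKO and cHet limb buds, in cytoplasmic RNA and on polysomes. Of all members, Bcl2 stood farthest from the controls, at 0.490 times the cHet level in input and 0.488 times on polysomes. No member passed the threshold (adjusted p under 0.05) in either fraction, and neither did any other gene. In input, limma called 0 of 12977 genes (0.00%), with 1943 genes at an unadjusted p under 0.05, and limma voom also called 0, with 2060. On polysomes limma called 0 of 12877 (0.00%), with 2743 at an unadjusted p under 0.05, and limma voom called 0, with 2840. Members at an unadjusted p under 0.05 numbered 2 in input (Bcl2 and Bcl2l1) and 1 on polysomes (Bcl2).

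Bcl2, the founding survival gene, stood at 6.78, 6.66 and 6.67 FPKM in the cHet input libraries (replicates 1 to 3). The cKO input libraries had 3.80, 4.75 and 1.86. On polysomes it had 8.22, 8.06 and 8.01 FPKM in cHet and 2.80, 5.24 and 4.03 in cKO. Every cKO library was below every cHet library of its fraction, and the cKO libraries were spread more widely. The log2 difference, cKO minus cHet, was −1.03 in input (SE 0.32, 95% interval −1.77 to −0.28, adjusted p = 0.229, limma over all genes) and −1.03 on polysomes (SE 0.21, interval −1.51 to −0.56, adjusted p = 0.0866). An unadjusted p as small as that of Bcl2, or smaller, was found for 6.0% of all genes in input and 1.06% on polysomes. Without cKO input replicate 3, the library that stood apart, the input difference was −0.65 and passed (adjusted p = 0.0447). On polysomes it passed without cKO replicate 1 (−0.80, adjusted p = 0.0439) or without cKO replicate 2 (−1.24, adjusted p = 0.0406). Bcl2 was not alone in this: 326 of 12827 genes passed under that choice in input. On polysomes 160 of 12738 genes passed without cKO replicate 1 and 231 of 12704 without cKO replicate 2. Over all alternatives the adjusted p ran from 0.0447 to 0.672 in input and from 0.0406 to 0.337 on polysomes.

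Gene length moved with the same libraries. In cKO input replicate 3 the median log2 deviation from the cHet mean was 0.29 for genes under 2 kb and −0.16 for genes of at least 6 kb, and in cKO polysome replicate 1 these medians were −0.26 and 0.17. The Bcl2 gene model has 9157 bases and that of Bax 1576. With the length trend removed from each library, the Bcl2 difference was −0.92 in input (adjusted p = 0.171) and −1.08 on polysomes (adjusted p = 0.0870).

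Bcl2l1 encodes BCL-XL, the survival protein next in abundance to MCL1 at the mRNA level here. It had 20.8, 21.1 and 23.9 FPKM in cHet input and 28.8, 27.1 and 38.0 in cKO input, so that the groups did not overlap, with a log2 difference of 0.50 (SE 0.15, interval 0.13 to 0.86, adjusted p = 0.231, limma). On polysomes it had 35.6, 36.7 and 35.4 in cHet and 34.9, 40.7 and 52.3 in cKO. These groups overlapped, with a difference of 0.23 (SE 0.17, adjusted p = 0.465).

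Mcl1, a survival gene whose protein is turned over fast, had 53.7, 53.5 and 56.4 FPKM in cHet input and 54.8, 57.1 and 52.8 in cKO input. The input groups overlapped, and the log2 difference was 0.0083, with an interval from −0.22 to 0.24 and a sign that turned with the scaling. On polysomes Mcl1 had 43.4, 39.9 and 43.3 in cHet and 55.9, 46.6 and 46.7 in cKO, all cKO libraries above all cHet ones. That difference of 0.23 did not pass (SE 0.15, adjusted p = 0.373, limma).

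The effectors overlapped between genotypes in both fractions. Bax had 49.5, 46.6 and 52.8 FPKM in cHet input against 53.9, 52.1 and 80.6 in cKO, and on polysomes 75.8, 84.8 and 71.3 against 61.3, 92.0 and 127. Its highest value in each fraction came from cKO replicate 3. Bak1 had 28.5, 29.2 and 25.8 in cHet input against 22.8, 24.8 and 33.8 in cKO, and on polysomes 60.5, 59.6 and 53.3 against 33.2, 49.7 and 56.4. The log2 differences were 0.30 and 0.21 for Bax and −0.06 and −0.35 for Bak1, in input and on polysomes.

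Among the BH3-only genes, Pmaip1 (NOXA, which binds MCL1) had 6.77, 6.41 and 6.01 FPKM in cHet input and 6.52, 5.62 and 1.61 in cKO input. Replicate 3 of cKO alone was far below the rest, and the difference of −0.69 had an SE of 0.48. Bcl2l11 (BIM, an activator of the effectors) had 5.74, 5.45 and 5.92 against 7.52, 5.93 and 7.16, and Bmf, whose protein is held at the cytoskeleton in healthy cells, 12.6, 12.8 and 13.3 against 16.3, 13.6 and 17.9. Neither gene's input groups overlapped, and neither difference passed (0.26, adjusted p = 0.408, and 0.29, adjusted p = 0.355, limma). Bbc3 (PUMA, a p53 target) and Bid (cleaved by caspase-8 in the death receptor pathway) differed by 0.35 and 0.12 in input, with overlapping groups. On polysomes the 5 BH3-only differences ran from −0.27 for Bid to 0.21 for Bmf, and all overlapped. Bid shares exon sequence with Bcl2l13 on the opposite strand (11.2 to 16.2 FPKM), and since no source used here says whether the counts used strand, its values are uncertain.

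In all, 4 members did not overlap between genotypes in input (Bcl2 lower, and Bcl2l1, Bcl2l11 and Bmf higher in cKO), where 29.3% of all genes did not overlap (16.9% higher in cKO, and 1619 of 12977 genes lower). On polysomes 2 members did not overlap (Bcl2 lower and Mcl1 higher), where the share over all genes was 31.4% (17.9% higher and 13.5% lower). The median difference over the 10 members was 0.19 in input and −0.0048 on polysomes, beside −0.01 and 0.02 over all genes.

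**Figure D2:**
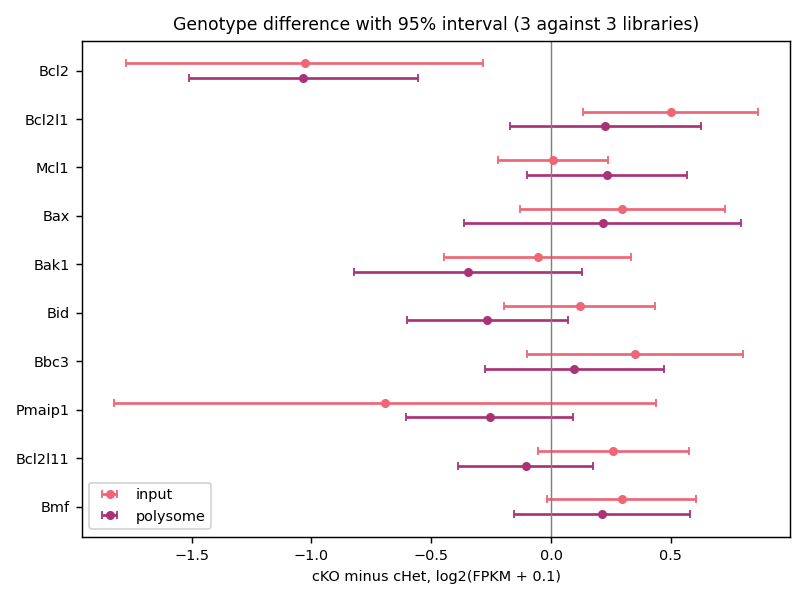
Difference between cKO and cHet in log2(FPKM + 0.1) for each gene (points) with its 95% interval (bars), in input and on polysomes, 3 against 3 libraries. The intervals of Bcl2 lie below 0 in both fractions (to −0.28 and −0.56) and that of Bcl2l1 lies above 0 in input (from 0.13), before adjustment over all genes.

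Ratios within a library do not depend on scaling between libraries, but they can carry a length trend of the library. The Bcl2 gene model has 9157 bases and that of Bax 1576. The lowest ratio of Bcl2 to Bax FPKM, 0.0231, was in cKO input replicate 3. The ratio of Bcl2 to Bax FPKM was 0.135 ± 0.00849 in cHet input and 0.0616 ± 0.0348 in cKO input, and on polysomes 0.105 ± 0.00907 and 0.0448 ± 0.0126 (SD, n = 3 each). Groups did not overlap in either fraction, the highest cKO values being 0.0911 and 0.0569 and the lowest cHet values 0.126 and 0.0950. Bcl2 alone already did not overlap, and the share of other gene pairs without overlap was not computed. Bcl2l1 had 3.27 ± 0.273 times the FPKM of Bcl2 in cHet input and 11.2 ± 8.0 times in cKO input (7.58, 5.70 and 20.4 in replicates 1 to 3, with a mean of 6.64 without replicate 3), with 4.44 ± 0.112 and 11.1 ± 2.87 on polysomes. Bcl2 made up 8.07% of the summed survival-gene FPKM in cHet input against 3.90% ± 1.71 in cKO input. The polysome values were 9.39% ± 0.145 and 4.19% ± 1.36. An exact permutation test of 3 against 3 libraries cannot give a two-sided p below 0.1, so these ratios are given without one.

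The plot of single cKO libraries shows how far the members moved with a library. In cKO input, 8, 7 and 7 of the 10 members were above the cHet mean in replicates 1 to 3, with median deviations of 0.09, 0.06 and 0.30. On polysomes 2, 4 and 5 were above it, with medians of −0.26, −0.10 and 0.06. Over the 6580 genes of 2 to 6 kb, the medians in replicates 1 to 3 were 0.0024, −0.014 and 0.18 in cKO input. They were 0.12, 0.020 and 0.084 on cKO polysomes. The share of all genes above the cHet mean in each library was not computed, so these counts are not read as a trait of the family. Bcl2 was below the cHet mean in all 6 cKO libraries, which are input and polysome RNA of only 3 lysates and so are not 6 independent samples.

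**Figure D3:**
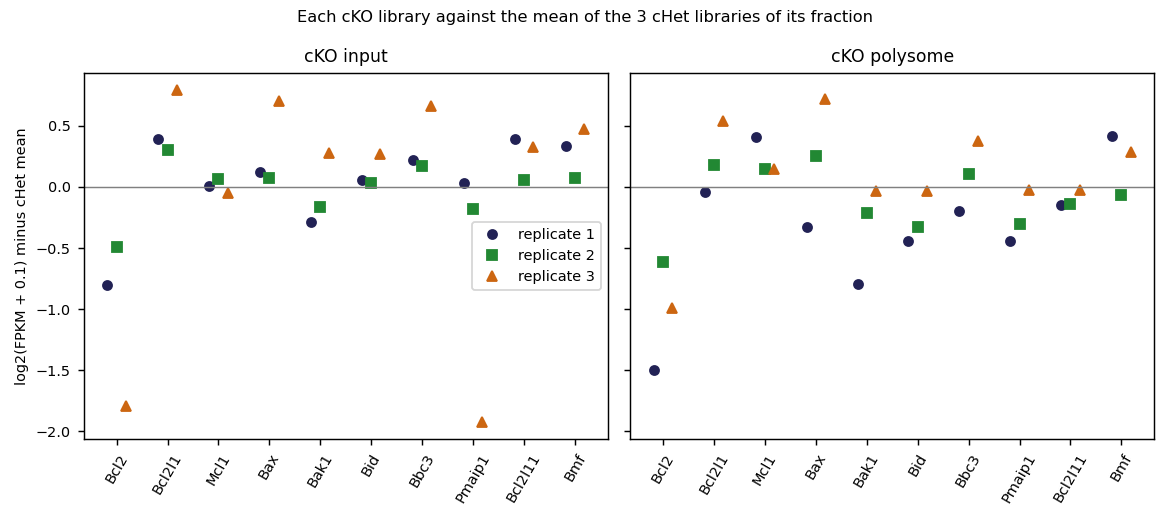
Level of each gene in each cKO library, as log2(FPKM + 0.1) minus the mean of the 3 cHet libraries of the same fraction; symbols are replicates. Bcl2 lies below 0 in all 6 libraries, which come from 3 lysates. Pmaip1 is far below 0 in input replicate 3 alone, where its FPKM was 1.61.

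Summed levels of some cell type markers also stood apart between the genotypes, with no gene of them past the threshold. The sums of the endothelium, muscle and cartilage markers overlapped between genotypes in both fractions. The summed FPKM of 12 macrophage genes, which mark the cells that clear dying cells, was 43.9 to 49.6 in cHet input against 55.7 to 79.8 in cKO input. On polysomes it was 48.7 to 53.9 against 64.8 to 94.4. All 10 tested in input and all 11 tested on polysomes had a higher value in cKO, and none was at 0 in any library. The 10 erythroid genes all had a lower value in cKO in both fractions, with overlapping sums and a median log2 difference of −0.51 in input and −0.34 on polysomes. The 9 epidermis genes summed to 312 to 321 in cHet input against 374 to 405 in cKO input, and on polysomes to 166 to 177 against 220 to 426, with median log2 differences of 0.27 and 0.72. The limb mesenchyme markers themselves summed to 773 to 949 in cHet input against 1065 to 1277 in cKO input, where 9 of 10 had a higher value. Their sums overlapped on polysomes, at 1398 to 1588 against 1301 to 1938. Their part in the differences of the members was not tested. In such bulk RNA, fewer cells of a type and less RNA per cell cannot be told apart.

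The next question was how the members were spread between polysomes and total cytoplasmic RNA. In cHet limb buds most pro-apoptotic mRNAs and that of the survival gene Bcl2l1 were higher on polysomes than in input, while Mcl1 was lower. Of the 10 members 8 passed the threshold, 7 higher and 1 lower, where 53.2% of 13610 genes passed (27.3% higher and 25.9% lower). In cKO limb buds 4 members passed with limma, all higher, where 32.5% of genes passed (16.9% higher and 15.6% lower). That cKO count was 6 with limma voom (4661 of 13610 genes), library-total scaling (4584 of 13615) or the lysate as a block (4479 of 13610). It was 7 without cKO input replicate 3 (5768 of 13529) and 6 without cKO polysome replicate 1 (6023 of 13559). Without cKO polysome replicate 3 it was 3 (2441 of 13538), and with the length trend removed 5 (3879 of 13610). Quantile normalization gave 5 (4207 of 13610), with Mcl1 added and lower. Both FPKM sets are relative, so a higher value on polysomes is higher relative to the other mRNAs of that fraction.

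Scaling bears on the direction. As deposited, 3717 genes were higher and 3525 lower on cHet polysomes, and 2306 higher and 2118 lower on cKO polysomes. With libraries scaled to the sum of protein-coding genes, the split was 2471 to 4578 in cHet and 1686 to 2704 in cKO. The median over all genes then moved from 0.02 to −0.21 in cHet and from 0.06 to −0.07 in cKO. Mitochondrial transcripts took 2.30 to 4.85% of the assigned reads in input and 0.344 to 1.13% on polysomes.

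Both effectors passed in cHet. Bak1 had polysome to input ratios of 2.12, 2.04 and 2.06 in the cHet lysates (log2 1.05, SE 0.20, adjusted p = 0.00113, limma) and 1.46, 2.00 and 1.67 in the cKO lysates (0.76, adjusted p = 0.0131). Without cKO polysome replicate 3 the cKO value did not pass (0.60, adjusted p = 0.0627). Bax had ratios of 1.53, 1.82 and 1.35 in cHet (0.64, SE 0.24, adjusted p = 0.0393) and 1.14, 1.77 and 1.58 in cKO (0.55, adjusted p = 0.0923). The cHet call of Bax was lost in 11 alternatives, among them quantile normalization (0.28, adjusted p = 0.261), removal of the length trend (0.25, adjusted p = 0.292) and leaving out any 1 cHet library. In cKO, Bax passed with the lysate as a block (adjusted p = 0.0292) and without cKO polysome replicate 1 (0.83, adjusted p = 0.00677).

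Of the 5 BH3-only genes, 4 rose in the cHet polysome fraction and 3 of these also in cKO. Pmaip1 had ratios of 2.48, 2.41 and 2.40 in the cHet lysates (log2 1.27, adjusted p = 0.0139, limma) and 1.75, 2.24 and 9.45 in the cKO lysates (1.70, adjusted p = 0.00602). The high ratio of cKO replicate 3 goes with the low input value of that lysate, and the cHet call was lost with protein-coding scaling (1.04, adjusted p = 0.0524). Bid had ratios of 2.23, 1.82 and 2.22 in cHet (1.04, SE 0.14, adjusted p = 1.78e-04) and 1.47, 1.62 and 1.68 in cKO (0.65, adjusted p = 0.00467). Bbc3 had 2.12, 2.43 and 1.70 in cHet (1.03, adjusted p = 8.03e-04) and 1.54, 1.97 and 1.68 in cKO (0.77, adjusted p = 0.00836). All lysates were above 1 for these 3 genes, as they were for Bak1, Bax, Bcl2l1 and Bcl2l11. The share of all genes with every lysate above 1 was not computed.

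Bcl2l11 had ratios of 1.64, 1.57 and 1.54 in cHet (0.65, adjusted p = 0.00110, limma) and 1.08, 1.38 and 1.24 in cKO, where it did not pass (0.29, adjusted p = 0.0903). In cKO it did pass with limma voom (0.33, adjusted p = 0.0449), with library-total scaling (0.33, adjusted p = 0.0412), with the length trend removed (0.47, adjusted p = 0.0299) and without cKO input replicate 3 (0.32, adjusted p = 0.0472). Bmf stood apart from the other BH3-only genes in passing in neither genotype, with ratios of 1.04 to 1.19 in cHet (0.15, adjusted p = 0.416) and 0.977 to 1.18 in cKO (0.07, adjusted p = 0.752).

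The survival genes did not move as a group. Bcl2l1 was higher on cHet polysomes, with ratios of 1.72, 1.74 and 1.48 (0.71, adjusted p = 0.00419, limma). In cKO its ratios were 1.21, 1.5 and 1.38 (0.44, adjusted p = 0.0640), which passed with the lysate as a block (adjusted p = 0.0275), with limma voom (0.48, adjusted p = 0.0294) and with library-total scaling (0.48, adjusted p = 0.0318). Mcl1 was lower on cHet polysomes, with ratios of 0.808, 0.745 and 0.768 (−0.37, SE 0.12, adjusted p = 0.0198), a call lost without cHet input replicate 1, 2 or 3 or cHet polysome replicate 2 (adjusted p 0.0521 to 0.0746). In cKO it had ratios of 1.02, 0.815 and 0.886 (−0.15, adjusted p = 0.364). Bcl2 did not pass in either genotype with all libraries: the cHet lysates gave 1.21, 1.21 and 1.20 (0.27, adjusted p = 0.445), the cKO lysates 0.738, 1.10 and 2.16 (0.26, adjusted p = 0.508). All groups share 1 estimate of the spread in this fit, so the cKO scatter enters the cHet error of Bcl2. In cHet, Bcl2 passed with the length trend removed (0.65, adjusted p = 0.0464, limma) and without both cKO libraries that stood apart (0.27, adjusted p = 0.0477).

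**Figure D4:**
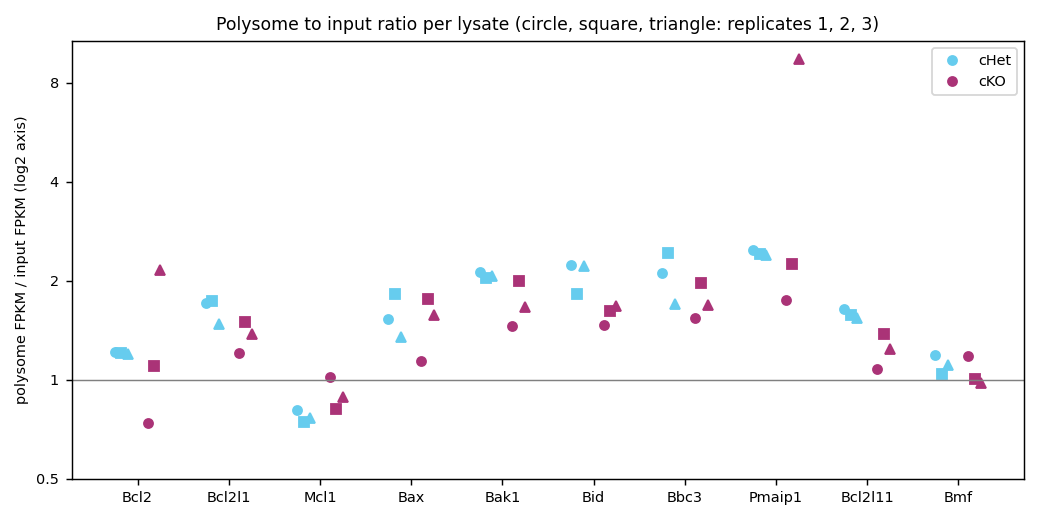
Ratio of polysome to input FPKM of each gene in each of the 6 lysates, on a log2 axis; symbols are replicates and the line marks a ratio of 1. Bcl2l1, Bax, Bak1, Bid, Bbc3, Pmaip1 and Bcl2l11 lie above 1 in all lysates, a pattern whose share over all genes was not computed. Mcl1 lies below 1 in all but cKO replicate 1 (1.02), and Pmaip1 reaches 9.45 in cKO replicate 3.

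Both libraries that stood apart belong to cKO. Without cKO input replicate 3 and cKO polysome replicate 1 together, 8 members passed in cKO, as did 8012 of 13472 genes. That choice was made after seeing the data. Under it Bax differed by 1.03, Bcl2l1 by 0.72, Bcl2l11 by 0.34 and Mcl1 by −0.26. Over the 10 members, the median polysome to input difference with all libraries was 0.68 in cHet and 0.50 in cKO, beside 0.02 and 0.06 over all genes.

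Whether the polysome to input difference itself differed between genotypes was tested as an interaction. No member passed, and limma called 0 of 13610 genes (0.00%), with 638 at an unadjusted p under 0.05 and a lowest adjusted p of 0.790, while limma voom called 0, with 697. Members with the smallest p were Bcl2l11 (−0.36, interval −0.74 to 0.01, adjusted p = 0.790) and Bid (−0.39, interval −0.81 to 0.04, adjusted p = 0.790, limma). The Bcl2 interaction was −0.0060 with an interval from −0.89 to 0.88, which leaves room for a large difference in either direction. The calls made in cHet and missed in cKO are therefore not shown to differ between genotypes.

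Other genes of the apoptosis pathway were taken from lists by function. None passed between genotypes in either fraction or in the interaction. The smallest p belonged to Tradd, an adaptor of the TNF receptor, at 0.87 in input (adjusted p = 0.150, limma) and 0.93 on polysomes (adjusted p = 0.118). Trp53inp1, a p53 target, differed by 0.49 on polysomes (adjusted p = 0.119), and Birc5 (survivin) by 0.48 in input (adjusted p = 0.202).

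The counts of these lists on polysomes stand beside the shares over all genes, 27.3% higher and 25.9% lower in cHet and 16.9% and 15.6% in cKO. With so few genes a list, several of them lie near those shares. The differences below are without removal of the length trend, which moved Bax from 0.64 to 0.25 and Bcl2 from 0.27 to 0.65 in cHet. They can therefore carry gene length as well as function, and the part of length in these lists was not tested. On cHet polysomes, 4 of 8 tested further BCL2 family genes were higher and none lower, among them Bad (0.97), a BH3-only gene, and Bnip3 (0.82). Of 8 genes of mitochondrial release and the apoptosome, 5 were higher and 2 lower. Cycs, which encodes cytochrome c, rose by 1.38 (adjusted p = 9.52e-05, limma), while Apaf1, the apoptosome scaffold, fell by 1.20 and Aifm1 fell by 1.42. The 5 inhibitor of apoptosis genes included 1 higher (Birc5, 1.17) and 1 lower (Birc6, −0.73). Of 7 executioner genes 2 were higher and 1 lower, the last being the caspase substrate Parp1 (−1.65).

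The death receptor list had 3 of 7 higher, with Fadd at 1.06 and Tnfrsf1a at 0.94, and 1 lower (Ripk1, −0.55). Of 12 genes of the p53 axis 4 were higher, including Aen (0.77) and Zmat3 (0.69), and Trp53 itself was lower (−1.0, adjusted p = 6.60e-04, limma). Genes of MCL1 turnover had 3 of 4 lower: the ubiquitin ligase Huwe1 (−0.79), the deubiquitinase Usp9x (−1.34) and Btrc (−0.66). Among 5 regulators of BH3-only genes, the dynein light chains Dynll1 (1.15) and Dynll2 (0.91), which tether BIM and BMF, and Ddit3 (0.90) were higher, and Foxo3 (−0.93) and Foxo1 (−0.62) were lower.

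In cKO the same lists had 4 higher and 0 lower of the further family genes, 2 and 1 of the mitochondrial genes, 1 and 0 of the inhibitors, 0 and 1 of the executioners, 3 and 0 of the death receptor genes, 2 and 1 of the p53 axis, 0 and 1 of MCL1 turnover and 3 and 2 of the BH3-only regulators. Cycs rose there by 1.21, and Parp1 fell by 1.0.

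For the most abundant member of each role, the genes with the most similar level over the 12 libraries were looked up among 7444 protein-coding genes, as a description with no test. Mcl1 was closest to Ilf2 (Pearson r 0.977), Leo1 (0.976) and Ciao1 (0.973). Bax was closest to Mrpl57 (0.982), Ccdc85b (0.981) and Guk1 (0.980), and Bmf to Yipf3 (0.973), Tmem35a (0.958) and Itgb5 (0.946). All these correlations share the 12 libraries, their 2 fractions and the libraries that stood apart.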

How the data were processed

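RNA-seq of 12 limb bud libraries was aligned with HISAT2 2.0.5 to mm10 and counted with featureCounts 1.5.0-p3, per the submitters' processing notes. The deposited values are FPKM computed by the authors. Multiplied by gene length and a constant per library they were whole reads, within 0.01, and the median ratio between libraries was equal for all 12, so they carry a median-ratio scaling. No source used here states the strandedness.

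From the FPKM, log2(FPKM + 0.1) was computed for genes with at least 1 FPKM in at least 3 fitted libraries and tested with limma 3.58.1 (trend, R 4.3.3), two-sided, with Benjamini-Hochberg adjustment over all genes. A fold change on this scale understates the change of low genes. Genotypes were compared on 6 libraries per fraction, polysome with input and the interaction on 12. The test was checked on simulated data with the same spread in all groups. That check does not cover groups of unequal spread, libraries that stand apart or the pairing by lysate. All 10 members, up to 4 genes passing per apoptosis list (2 where none passed) and the 3 genes most like 1 member per role are named. The members and lists were chosen with earlier results of these data known.

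Input and polysome RNA of the same genotype and number came from 1 lysate, per the labels' design text, and their deviations correlated at 0.0525 to 0.249. The main fits used the groups only and left this pairing out. The lysate entered as a block only in an alternative fit. The labels call the replicates biological without naming litters, so p-values measure the spread between these samples. Sequences and positions are from the GENCODE M21 annotation and the mm10 genome.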

Additional observations from a re-analysis of the deposited data

How the results depend on the processing

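The 10 member differences kept their direction and side of the threshold in 179 of 190 values in input, 185 of 190 on polysomes, 231 of 250 for cHet polysome against input, 228 of 250 for cKO and 231 of 250 for the interaction. The difference of Mcl1 in input turned to −0.0071 with median-ratio, −0.043 with protein-coding, −0.025 with library-total scaling, −0.058 with quantile normalization, −0.025 with voom and −0.0078 without the length trend. Bbc3 on polysomes turned to −0.0058 with quantile normalization, and Bmf polysome against input to −0.076 in cHet and −0.059 in cKO with protein-coding scaling. Interactions turned with protein-coding scaling for Bcl2 (0.091), Bax (0.015) and Bmf (0.017), and for Bcl2 with library-total scaling (0.034) and voom (0.032). Without both cKO libraries that stood apart, they turned for Bcl2l1 (0.010), Bax (0.39), Bak1 (0.10), Bbc3 (0.046) and Pmaip1 (−0.086). The cause was not tested for any of these.

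Fitting all 12 libraries gave 82 genes between genotypes in input and 184 on polysomes, and the replicate block gave 42 on polysomes. The numbers do not pair across genotypes (correlations −0.281 to 0.165). The lysate block changed no call beyond Bcl2l1 and Bax in cKO. Without both cKO libraries, 8012 of 13472 genes and 8 members passed in cKO. With no filter on low values 7 genes had an interaction. Library-total scaling, the length trend and leaving out both libraries were added after seeing the data; median-ratio scaling of 12 libraries equals the deposited scaling by construction.

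Leaving out 1 library at a time gave 0 to 326 genes and 0 to 1 member in input, where 326 came without cKO replicate 3 and 47 without cKO replicate 2. On polysomes it gave 0 to 231 genes and 0 to 1 member, with 160 without cKO replicate 1, 231 without cKO replicate 2 and 1 without cHet replicate 1. For cKO polysome against input it gave 2441 to 6023 genes and 3 to 7 members. Differences that crossed 0 ran from −0.021 to 0.036 (Mcl1) and −0.22 to 0.059 (Bak1) in input, from −0.037 to 0.49 (Bax) and −0.045 to 0.24 (Bbc3) on polysomes, and from −0.12 to 0.53 (Bcl2) and −0.039 to 0.21 (Bmf) for cKO polysome against input. Interactions ran from −0.39 to 0.26 (Bcl2), −0.33 to 0.19 (Bax), −0.18 to 0.80 (Pmaip1) and −0.19 to 0.060 (Bmf). Depth limits the low members most, with 75 reads at the lowest.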
